A study of Mus musculus with 16 samples.

Results

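The constitutive proteasome subunits were followed through primary lung adenocarcinomas and their metastases in p53R172HΔg/+ K-rasLA1/+ mice. The genes were those with a probe set of a single symbol starting with Psma, Psmb, Psmc or Psmd and a digit, together with Psme1, Psme2 and Psme3, and without the immunoproteasome genes Psmb8, Psmb9 and Psmb10. This rule found 38 of the 12393 genes with at least 1 such probe set. They are 15 subunits of the core particle, 20 of the cap (assembly factors of the cap with a Psmd name included), the 11S activators Psme1 and Psme3, and Psmc3ip, which shares the letters but encodes a meiotic recombination factor and is given apart, so that 37 genes were described. Psme2 was not among them because its only probe set carries 2 symbols. Each gene was read at its probe set with the highest mean log2 intensity over the 16 tumors.

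The series holds 16 tumors of 7 mice, 1 Affymetrix Mouse 430A 2.0 array each. Every mouse was heterozygous for a germline knock-in of mutant p53 (R172H with a deleted G, written Δg) and for K-rasLA1, a latent allele that becomes oncogenic by sporadic recombination in somatic cells, so no group lacks these alleles and none is normal lung. The 4 primary tumors of mice 1 to 4 were matched with 9 metastases: liver, subcutaneous/body wall and inguinal in mouse 1, liver in mouse 2, heart, mediastinal lymph node and subcutaneous in mouse 3, and mediastinal lymph node and parietal pleura in mouse 4. These sites are those of the sample labels. The paper lists the inguinal tumor of mouse 1 and the subcutaneous tumor of mouse 3 as body wall metastases. The 3 primary tumors of mice 5 to 7 had no profiled metastasis. Mouse 6 was female and the others male, and ages were not given in the sources used here. All tumors were dissected bulk tissue, in which fewer cells of a type and less RNA per cell cannot be told apart. The metastases of a mouse share 1 primary tumor and 1 array of it.

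The proteasome is the protease that degrades proteins marked with ubiquitin. Its barrel-shaped core holds outer rings of alpha subunits, which gate the entry, around inner rings of beta subunits, of which Psmb5, Psmb6 and Psmb7 carry the peptidase sites. The cap recognizes the ubiquitin chain, removes it and unfolds the substrate with a ring of ATPases (the Psmc genes), helped by non-ATPase subunits (the Psmd genes), while 11S activators open the core without ubiquitin or ATP. Cells that run short of proteasome activity raise many subunit genes together through the transcription factor Nrf1 (Nfe2l1), and immune signals replace the catalytic beta subunits by Psmb8, Psmb9 and Psmb10.

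Promoters from RefSeq (GRCm38.p6) were available here for 30 of the 37 genes and for 27025 genes in all. In the 250 bases before the start, searched on both strands, CCGGAAG, the core of sites for ETS factors, was found in 10 of the 30 (33.3%) and in 7.83% of all genes. The holders were Psma6, Psmc1, Psmc2, Psmc6, Psmd2, Psmd4, Psmd6, Psmd11, Psmd12 and Psme3, which makes 8 of 17 cap genes and 1 of 11 core genes. The GC box CCGCCC was found in 60% against 35.4% of all genes, CCAAT, the box read by NF-Y, in 40% against 37.5%, and TGACNNNGC, the antioxidant response element read by Nrf1 and Nrf2, in 16.7% against 11.5%. GAAANNGAA, part of the interferon response element, was in 10% against 8.18%. The E2F motif TTTCCCGC was in 3.33% against 1.03% and its variant TTTGGCGC in 0 of 30 against 0.485%. GCGCATGC, part of the motif of nuclear respiratory factor 1, was in 6.67% against 2.56%, and ACTACAATT, part of the ZNF143 motif, in 0 of 30 against 0.418%. The 9 motifs were chosen with the expression results known, some overlap each other, and a match is a description of these letters. The 27025 genes were not limited to those on the array, and no share was taken over genes as bright as the subunits. Promoters are shown for Psma2 and Psmd14, higher in every metastasis of mice 1 to 3 and lower in both of mouse 4. Those of Psmd2 and Psmd4, which differed most between primary tumors relative to their error, follow. The last is that of Psmd12, a cap gene outside both patterns. All are 5′ to 3′ on the strand of the gene, with matches on either strand to the ETS, NF-Y and antioxidant response motifs in capitals.
Psma2 (chr13:14612992-14613241, plus strand): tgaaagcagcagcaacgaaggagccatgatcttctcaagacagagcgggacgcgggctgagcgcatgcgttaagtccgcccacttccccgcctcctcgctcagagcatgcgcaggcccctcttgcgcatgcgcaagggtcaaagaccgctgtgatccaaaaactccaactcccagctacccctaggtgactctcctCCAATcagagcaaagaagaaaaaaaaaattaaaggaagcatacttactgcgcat
Psmd14 (chr2:61711444-61711693, plus strand): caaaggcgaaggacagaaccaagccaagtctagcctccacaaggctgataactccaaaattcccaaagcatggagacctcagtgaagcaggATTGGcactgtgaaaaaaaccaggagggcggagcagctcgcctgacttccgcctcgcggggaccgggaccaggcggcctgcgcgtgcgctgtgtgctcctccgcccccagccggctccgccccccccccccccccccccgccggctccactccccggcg
Psmd2 (chr16:20651402-20651651, plus strand): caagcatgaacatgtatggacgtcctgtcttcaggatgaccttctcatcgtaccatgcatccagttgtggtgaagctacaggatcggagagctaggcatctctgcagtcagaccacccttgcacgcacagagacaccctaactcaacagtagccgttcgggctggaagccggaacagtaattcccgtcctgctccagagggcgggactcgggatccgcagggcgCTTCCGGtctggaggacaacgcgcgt
Psmd4 (chr3:95042615-95042864, minus strand): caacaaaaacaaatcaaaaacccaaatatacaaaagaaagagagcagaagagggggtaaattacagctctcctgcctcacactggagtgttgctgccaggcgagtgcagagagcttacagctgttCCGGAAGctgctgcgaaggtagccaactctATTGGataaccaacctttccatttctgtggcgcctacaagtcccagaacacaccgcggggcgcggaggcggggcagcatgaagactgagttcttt
Psmd12 (chr11:107479278-107479527, plus strand): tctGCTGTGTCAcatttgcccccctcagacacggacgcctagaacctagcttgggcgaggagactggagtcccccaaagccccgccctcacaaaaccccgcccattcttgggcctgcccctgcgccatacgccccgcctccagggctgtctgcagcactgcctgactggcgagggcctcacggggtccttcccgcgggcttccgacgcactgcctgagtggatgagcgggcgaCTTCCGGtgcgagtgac
Psmd12 holds the ETS letters 17 bases before the start, and Psmd2 holds them 26 bases before the start used for its window. That start is not the outermost of Psmd2, since the window lies inside the span of the gene (chr16:20651122-20663414). Psma2 and Psmd14 hold no ETS letters in their windows. Psmd4 holds both an ETS match, 125 bases before the start, and a CCAAT match on the other strand at 95 bases.

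The subunit genes were well measured. Of the 37, 31 had a mean over the 16 tumors above the 75th percentile of all array values (195) and all 37 above the 25th percentile (24.3), and none had a value under 1. Psma8, a testis form of an alpha subunit, and Psmd10 (gankyrin, an assembly chaperone of the ATPase ring) were the dimmest, at 23.8 to 38.2 and 24.2 to 60.0. The arrays had similar medians, at most 85.6. As a check of the tissue, the summed level of 9 alveolar type 2 markers was 18650 to 45620 in the 4 matched primary tumors, 35420 to 52650 in those of mice 5 to 7 and 1204 to 30980 in the metastases, and that of 6 markers of lung adenocarcinoma epithelium 7374 to 13810, 5041 to 13050 and 3720 to 11970. The summed level of 7 hepatocyte markers reached 8866 in a metastasis against 1384 at most in a primary tumor. The part of these tissue differences in the results below was not tested.

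Against the matched primary tumors, the subunits had no common direction in the metastases, with single genes on both sides. The difference was fitted in limma with the mouse as a block over 13 tumors. Of the 37 genes, 21 were higher and 16 lower. Their median log2 difference was 0.01 against -0.02 for all 22626 probe sets. No gene passed an adjusted p of 0.05, where 0.354% of all probe sets did, and none passed an unadjusted p of 0.01, where 1.14% of all probe sets were called higher and 2.84% lower. At an unadjusted p of 0.05 the count was 1, Psme1, against 11.4% of all probe sets. The smallest adjusted p was 0.384. The 95% intervals bound what these tumors allow. All 37 lay within 1 log2 unit of no difference, and 18 within 0.5. With 1 mean ratio per mouse most intervals were wider. Then 36 of 37 lay within 1 log2 unit, and fewer than 18 within 0.5.

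The median log2 difference was 0.03 for the core (9 of 15 higher) and 0.01 for the cap (12 of 20 higher), a gap of 0.02. Within the core the alpha ring had a median of -0.02 (3 of 8 higher) and the beta ring 0.08 (6 of 7 higher). Within the cap the ATPases had 0.11 (5 of 6 higher) and the non-ATPase subunits -0.02 (7 of 14 higher). Both 11S activators were lower, with a median of -0.22. The single genes ran from -0.28 to 0.32. The lower value of Psme3 turned to 0.15 at its other probe set above the 25th percentile, and was -0.03 with its probe sets averaged.

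**Figure D1:**
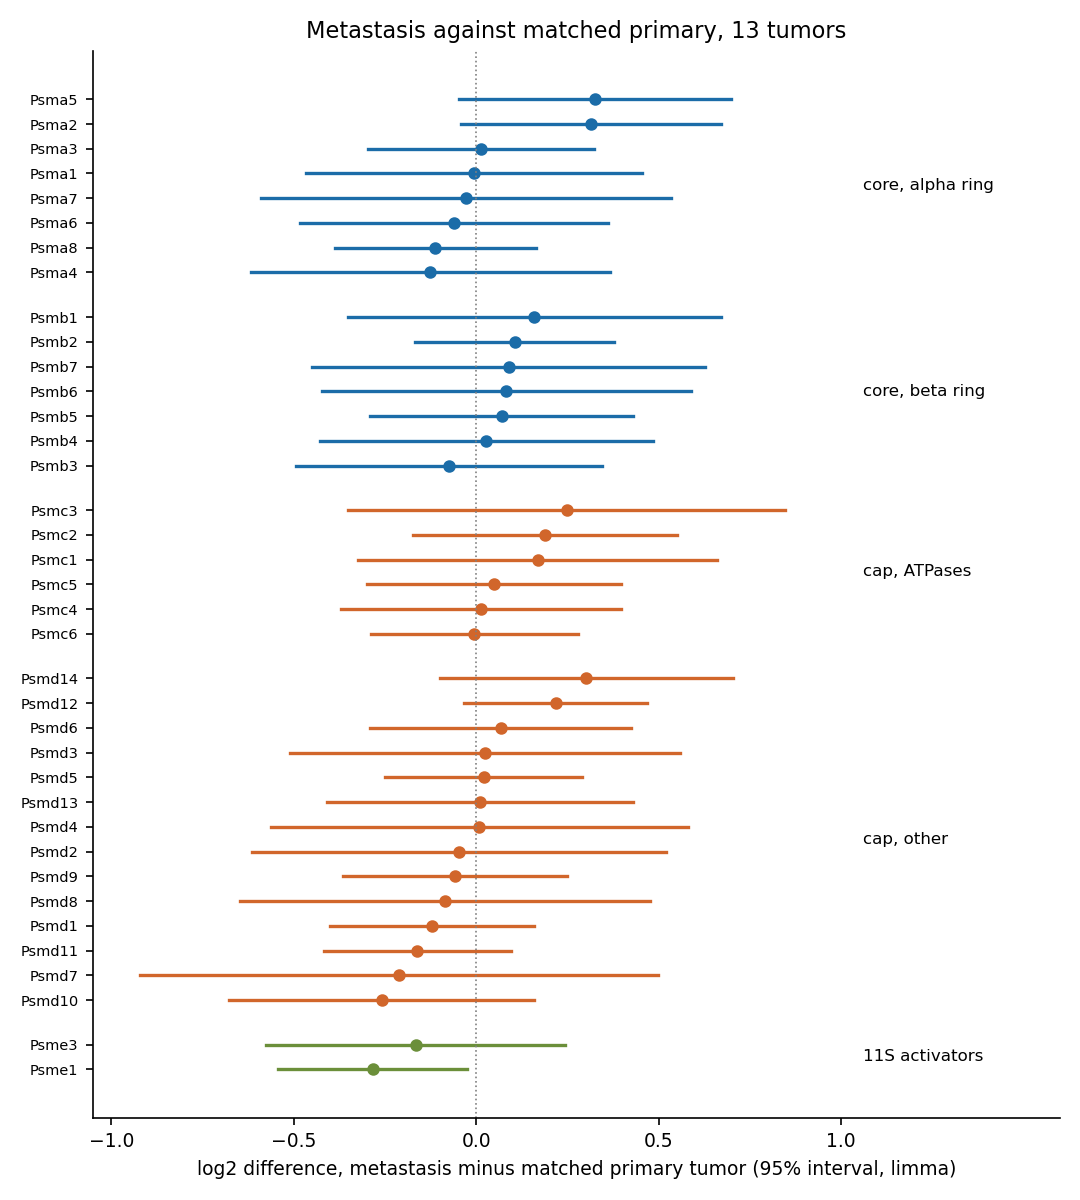
Log2 difference between 9 metastases and 4 matched primary tumors for each of the 37 genes (points) with its 95% interval (lines) from limma, grouped by role, in blue for the core, orange for the cap and green for the 11S activators. Every interval but that of Psme1 includes 0, and all lie between -1 and 1.

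Among alpha subunits, Psma2 and Psma5 had the largest differences. Psma2 measured 922, 894, 877 and 890 in the primary tumors of mice 1 to 4, and between 801 and 1639 (median 1081) in the 9 metastases. These primary tumors were nearly equal, while those of mice 5 to 7 were lower, at 679, 562 and 750. Of the metastases, 7 of 9 lay above their own primary tumor, those of mouse 4 being the exceptions. The log2 difference was 0.32 (SE 0.16, adjusted p = 0.510, limma). Psma5 was at 260, 293, 502 and 400 in the primary tumors and between 344 and 578 (median 455) in the metastases. As for Psma2, the groups overlapped. For Psma5, 6 of 9 metastases were higher, with a log2 difference of 0.32 (SE 0.17, adjusted p = 0.515, limma). Psma4 (log2 difference -0.13) and the testis subunit Psma8 (-0.11) were slightly lower, and the other 4 alpha genes lay between -0.06 and 0.01.

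Of the beta subunits, Psmb1 was at 801, 867, 1062 and 1102 in the primary tumors and between 747 and 1778 (median 975) in the metastases. All 3 metastases of mouse 1 (1475 to 1778) were above every primary tumor of the series, and both of mouse 4 were below their own primary tumor. The log2 difference was 0.16 (SE 0.23, adjusted p = 0.850, limma). The other Psmb1 probe set above the 25th percentile (mean intensity 207 against 1020) differed by 0.39 and was above the primary tumor in both mice, with mean ratios of 0.76 in mouse 1 and 0.40 in mouse 4. Psmb2, a non-catalytic subunit, and Psmb5, which carries the chymotrypsin-like site, differed by 0.11 and 0.07, and the other 4 lay between -0.07 and 0.09.

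In the ATPase ring, Psmc2 was higher in 8 of 9 metastases, by 0.19 on average (SE 0.16, adjusted p = 0.729, limma). Its other well measured probe set (mean intensity 334 against 589) went the other way, with a log2 difference of -0.19 and a mean ratio of -0.61 in mouse 4, and the mean of its probe sets differed by 0.05. Psmc3 had a wider spread. It was at 251, 212, 368 and 269 in the primary tumors and between 169 and 626 (median 312) in the metastases, with all 3 of mouse 1 above their primary tumor and both of mouse 4 below. Its log2 difference was 0.25 (SE 0.27, adjusted p = 0.794, limma). Psmc1, whose log2 difference was 0.17, ran from 237 to 523 in the metastases. The other 3 lay between -0.0047 and 0.05.

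Among non-ATPase subunits, Psmd14, the deubiquitinase that cuts the chain from the substrate, was at 426, 397, 814 and 533 (mice 1 to 4) in the primary tumors and between 375 and 1031 (median 718) in the metastases. It was higher in 7 of 9 metastases and lower in both of mouse 4, by 0.30 on average (SE 0.18, adjusted p = 0.587, limma). The average was 0.11 without the tumors of mouse 1 and 0.51 without those of mouse 4. Psmd12, a scaffold subunit of the lid, was at 327, 234, 443 and 314 in the primary tumors and between 317 and 603 (median 352) in the metastases. It was higher in 8 of 9 and, with Psmc2 alone among the 37 genes at the probe sets read here, in both metastases of mouse 4, with a log2 difference of 0.22 (SE 0.11, adjusted p = 0.518, limma). On the other side, Psmd11, a lid scaffold (log2 difference -0.16), Psmd10 (-0.26) and Psmd1, a large ubiquitin receptor platform of the base (-0.12), were lower in 8, 8 and 7 of 9 metastases, and none passed. Psmd7, the partner of Psmd14, had the widest interval, from -0.92 to 0.50 around -0.21. Psmd6 and the assembly chaperone Psmd9 lay near 0, at 0.07 and -0.06, and the other 6 between -0.09 and 0.03.

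Psme1, the alpha subunit of the interferon-inducible 11S activator, moved most in relation to its error. It measured 883, 791, 727 and 782 in the primary tumors of mice 1 to 4 and between 493 and 798 (median 677) in the metastases. All metastases but the parietal pleura of mouse 4 were below their own primary tumor. The log2 difference was -0.28 (SE 0.12, adjusted p = 0.384, limma). In mice 5 to 7, whose primary tumors had no profiled metastasis, it was at 596, 586 and 615, below all 4 matched primary tumors, so that over all 16 tumors the log2 difference was -0.13 (adjusted p = 0.715, limma). Psme3, which forms the nuclear 11S activator, differed by -0.17 (adjusted p = 0.801, limma).

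The single mice went opposite ways. The median log2 ratio of the 37 genes over the primary tumor of the same mouse was 0.20, 0.40 and 0.67 in the liver, subcutaneous/body wall and inguinal metastases of mouse 1, and 0.22 in the liver metastasis of mouse 2. In mouse 3 it was 0.18 in the heart, -0.24 in the mediastinal lymph node and -0.17 in the subcutaneous metastasis, and in mouse 4 it was -0.28 in the mediastinal lymph node and -0.27 in the parietal pleura. All 9 medians kept their sign when arrays were quantile normalized or centred on their medians, although quantile normalization brought that of the inguinal metastasis to 0.36, of the parietal pleura to -0.13 and of the mediastinal lymph node of mouse 3 to -0.13. The median over all 12393 genes lay between -0.08 and 0.07, and over the 5612 genes of like brightness between -0.14 and 0.14.

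Most genes of mice 1 and 4 had the sign of these medians. In the liver, subcutaneous/body wall and inguinal metastases of mouse 1, 29, 29 and 34 of the 37 genes were higher than in the primary tumor, and in both metastases of mouse 4, 32 of 37 were lower (28 in the lymph node and 23 in the pleura after quantile normalization). Past a log2 ratio of 0.5, the 3 metastases of mouse 1 had 6, 17 and 21 of 37 genes, against 15.4%, 14.5% and 22.3% of all genes. The count in the liver metastasis was thus near the share of all genes. None of the 37 was under -0.5 in the liver or subcutaneous/body wall metastasis or in the inguinal one, where 15.3%, 18.4% and 12.2% of all genes were. In mouse 4 the order was turned. There, 0 of 37 were above 0.5 in either tumor (13.2% of all genes in the mediastinal lymph node and 9.26% in the pleura), and 14 and 13 were under -0.5 (15.2% and 15%). The liver metastasis of mouse 2 had 9 genes above 0.5 (16.8% of all genes), more than that of mouse 1, and 2 under -0.5 (20.1%). In mouse 3, the heart metastasis had 5 above (10.5%) and 0 under (16.1%), the mediastinal lymph node 0 above (14.9%) and 8 under (21.6%), and the subcutaneous metastasis 0 above (10.9%) and 4 under (10.5%). Many shares were smaller over the 5612 genes of like brightness. Above 0.5 they were 12.05%, 12.8% and 23.2% in mouse 1, 12.5% in mouse 2, 8.32%, 8.39% and 6.20% in mouse 3, and 7.23% and 3.67% in mouse 4. Under -0.5 they were 11.9%, 13.5%, 6.88%, 20.7%, 10.4%, 20.5%, 6.84%, 14.7% and 13.8% in the same order.

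**Figure D2:**
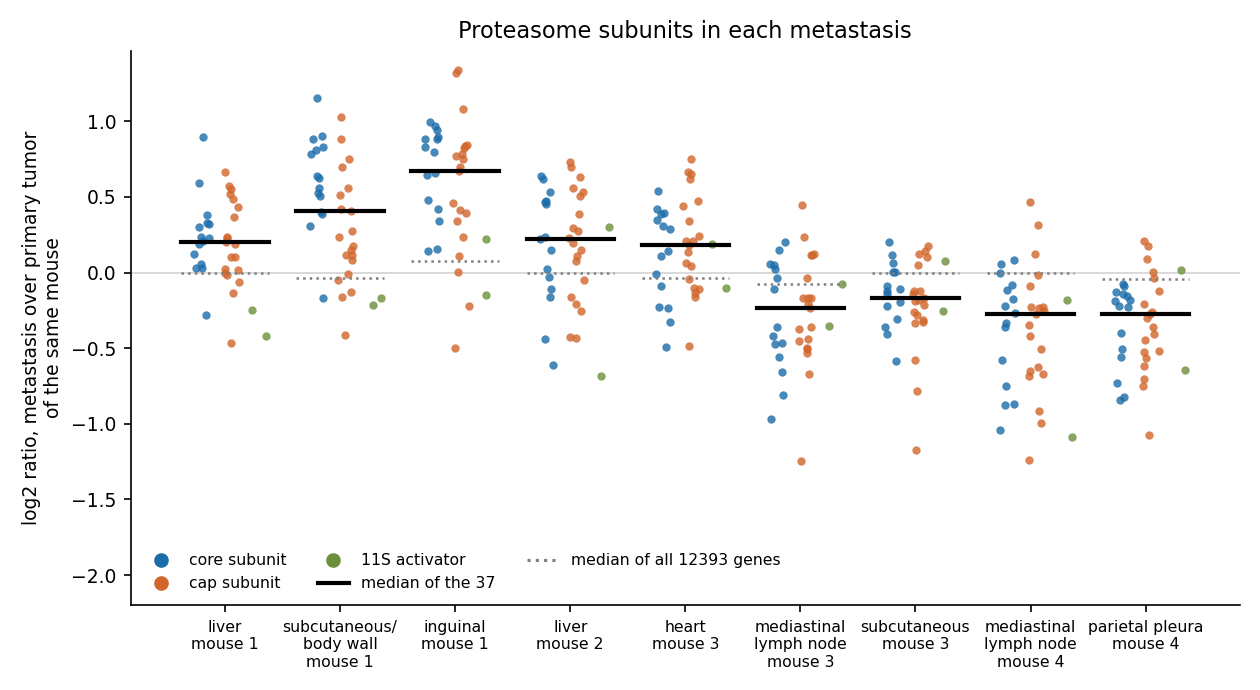
Log2 ratio of each of the 37 genes in each of the 9 metastases over the primary tumor of the same mouse. Blue points are core subunits, orange cap subunits and green 11S activators, the black bar is the median of the 37 and the dotted bar that of all 12393 genes. The black bars stand above 0 in mice 1 and 2 and in the heart metastasis of mouse 3, and below 0 in the other 4 metastases.

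Higher in all 3 metastases of mouse 1 were 26 of the 37, against 28% of all genes, and lower in both metastases of mouse 4 were 29, against 38.5%. Both held for 23 of the 37, 12 of 15 core and 11 of 20 cap genes, against 11.4% of all genes. These mice were set side by side after their medians were seen, and the 37 genes are not separate observations, so these counts are descriptions. The largest gap between the mean ratios of these mice was in Psma7, an alpha subunit (0.74 in mouse 1, -0.93 in mouse 4), followed by Psmd7 (0.48, -0.97), Psmc3 (0.93, -0.48) and Psmb1 (0.98, -0.41). Psmd14 was at 0.79 and -0.31 and Psma2 at 0.62 and -0.13, while Psmd12 was at 0.03 and 0.20. Since each mouse has 1 primary tumor, the spread of the primary tumor enters all ratios of its mouse alike. The difference between mouse 1 and mouse 4 was tested in limma with a term for each mouse and tissue over the 13 tumors, which leaves 5 residual degrees of freedom and takes the spread of single primary tumors to be that of metastases within a mouse, a test chosen after these ratios were seen. Of the 37 genes 33 had the larger value in mouse 1, with a median difference of 0.78 against 0.04 for all probe sets. At an unadjusted p of 0.05, 8 genes were higher in mouse 1 (Psma7, Psmd14, Psma4, Psmb1, Psma1, Psmd13, Psma5 and Psmd3), against 4.3% of all probe sets. At an adjusted p of 0.05 there were 0, against 0.0309%. For Psma7 the difference was 1.67 (95% interval 0.59 to 2.76, adjusted p = 0.618, limma), the lowest adjusted p of the 37. The count of 8 became 4 after quantile normalization, 3 without the subcutaneous/body wall metastasis of mouse 1 or either metastasis of mouse 4, 5 without the inguinal metastasis and 15 without the heart metastasis of mouse 3. Without the tumors of mouse 1 the median of the 37 differences was -0.16, and without those of mouse 4 it was 0.17. Genes of mitosis differed between the mice too. The median log2 ratio of 14 such genes was 1.51, 2.13 and 2.37 in the metastases of mouse 1, 1.73 in mouse 2, 0.80 in the heart, 0.66 in the lymph node and 0.36 in the subcutaneous metastasis of mouse 3, and 0.09 (lymph node) and 0.32 (pleura) in mouse 4. The part of cell division in the subunit ratios was not tested.

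The medians of core and cap lay close in most metastases. They were 0.23 and 0.20 in the liver metastasis of mouse 1 and 0.22 and 0.21 in that of mouse 2. In the heart metastasis of mouse 3 they were 0.15 and 0.20, but there the alpha ring had a median of -0.16 and the beta ring 0.39. The mediastinal lymph node of mouse 3 had -0.04 for the alpha ring and -0.42 for the beta ring. Both rings had medians of the same sign in every metastasis but the heart. For mouse 4 the lymph node had -0.27 and -0.31 and the pleura -0.22 and -0.33. Core and cap lay furthest apart in the subcutaneous/body wall metastasis of mouse 1, where the core median was 0.62 and the cap median 0.21. There 11 of 15 core but 6 of 20 cap genes were above 0.5. In the inguinal metastasis of the same mouse the medians were 0.80 and 0.68. Over the 9 metastases the gap between core and cap ran from -0.14 in the mediastinal lymph node of mouse 3 to 0.42.

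Set against the mean of each gene over all 16 tumors, the subunits were lowest in the 3 primary tumors of mice 5 to 7. Their median deviation was -0.40, -0.47 and -0.55 log2 units there, -0.10, -0.10, 0.30 and 0.13 in the primary tumors of mice 1 to 4, and between -0.30 (mediastinal lymph node, mouse 4) and 0.47 (heart, mouse 3) in the metastases. The number of the 37 genes above their mean was 5, 8 and 1 in the tumors of mice 5 to 7, and 33 each in the heart and inguinal metastases and in the primary tumor of mouse 3. Core and cap medians followed each other from tumor to tumor.

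**Figure D3:**
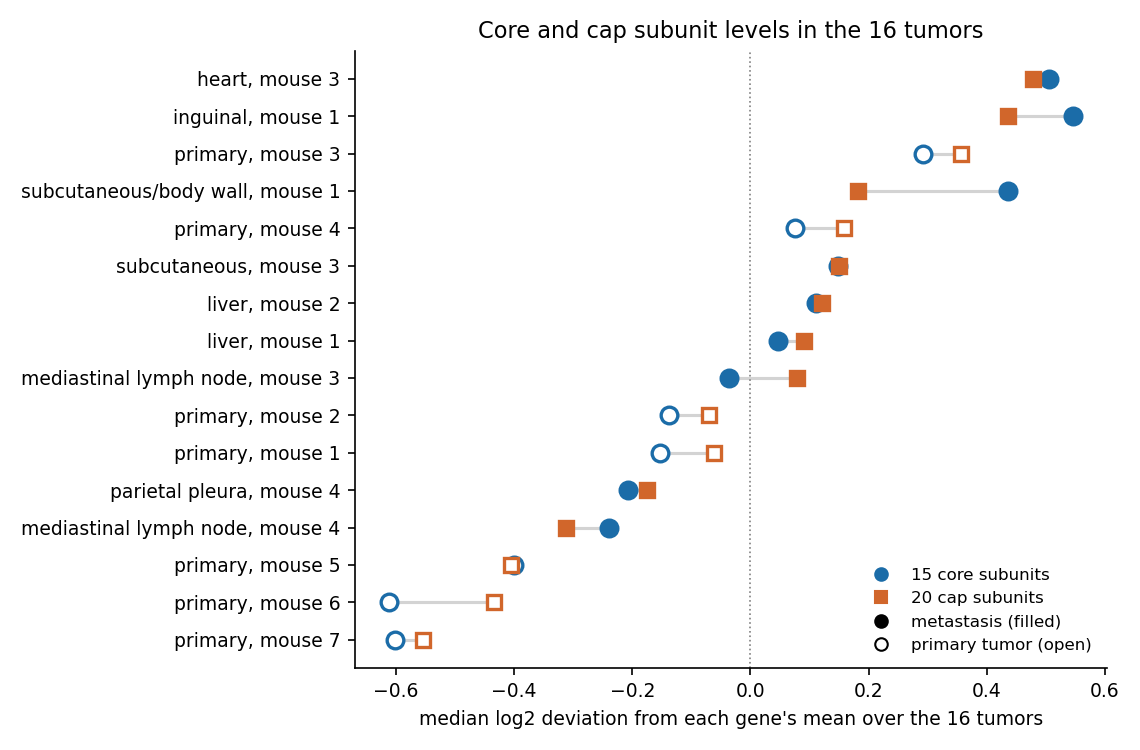
Median log2 deviation of 15 core subunits (circles) and 20 cap subunits (squares) from the mean of each gene over the 16 tumors, with metastases filled and primary tumors open, ordered by the median of the 37 genes. The primary tumors of mice 5, 6 and 7 lie lowest on both, and the heart and inguinal metastases highest.

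The primary tumors of mice 5 to 7 were therefore compared with those of mice 1 to 4 in limma, a comparison chosen after these levels were seen. Of the 37 genes 36 were lower, Psma8 being the exception, with a median log2 difference of -0.54 against -0.05 over all genes and -0.10 over genes of like brightness, of which 60.4% were lower. The core median was -0.54 and the cap median -0.58. At an unadjusted p of 0.01, 7 genes were lower, against 5.82% of all probe sets called lower, and at 0.05 there were 21, against 13.4%. Levels of all 3 tumors lay below all 4 others in 19 of the 37 genes, against 12.2% of all genes. Psmd2 and Psmd4 passed an adjusted p of 0.05, which 1.02% of all probe sets passed.

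Psmd4, a ubiquitin receptor of the cap, was at 633, 684, 760 and 758 in mice 1 to 4 and at 417, 384 and 360 in mice 5 to 7. The groups did not overlap, and the log2 difference was -0.87 (SE 0.13, adjusted p = 0.0435, limma). These values are of the brightest of 3 Psmd4 probe sets above the 25th percentile (mean intensity 685, 612 and 304). Values of the other probe sets in these primary tumors are not given here. In the metastases of mouse 1 the mean ratios of the 3 probe sets were 0.53, -0.38 and 1.00. Psmd2, a large scaffold of the base, was at 517, 574, 505 and 581 against 254, 284 and 320. It also showed no overlap, with a log2 difference of -0.93 (SE 0.14, adjusted p = 0.0426, limma). The calls did not last when any of the 7 tumors was left out, where the adjusted p ran from 0.0663 to 0.124 for Psmd2 and from 0.0861 to 0.127 for Psmd4, and the median of the 37 stayed between -0.63 and -0.43. The other 5 at p of 0.01 were Psmd7 (log2 difference -1.42), Psmc3 (-1.11), Psmd10 (-0.89), Psma6 (-0.84) and Psmd8 (-0.70), with adjusted p from 0.0582 to 0.111 (limma). Marker lists differed as well between these tumors. The medians of the same log2 difference were 0.29 for alveolar type 2, 0.32 for endothelial, 0.27 for lymphocyte and 0.33 for macrophage markers and -0.95 for club cell markers. They were -0.20 for lung adenocarcinoma epithelium, -0.20 for hepatocyte, -0.09 for fibroblast and 0.04 for muscle markers. Genes of mitosis had a median of -0.08. Their part in the lower subunit levels was not tested, and the grouping cannot be told apart from the mice themselves.

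The comparison of all 9 metastases with all 7 primary tumors takes in these low tumors, with the mouse as a random block. In it 32 of 37 genes were higher, with a median log2 difference of 0.23. The medians were 0.19 for the alpha ring, 0.29 for the beta ring, 0.27 for the ATPases, 0.19 for the non-ATPase subunits and -0.07 for the 11S activators. At an unadjusted p of 0.05, 5 genes were higher (Psma2, Psma5, Psmd14, Psmc3 and Psmc1), against 5.93% of all probe sets, and 1 of them, Psma2, at 0.01, against 2.07%. Psma2 was 0.46 higher (SE 0.16, adjusted p = 0.199, limma) and Psmc3 0.66 (SE 0.28, adjusted p = 0.338, limma). None passed an adjusted p of 0.05, which 1.24% of all probe sets passed. With each tumor left out in turn, between 2 and 9 genes were higher at 0.05, and Psma2 was no longer past 0.01 in 11 of 16 cases.

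Of the immunoproteasome subunits, which take the place of the catalytic beta subunits, Psmb8 was past p of 0.01 in the matched comparison and lower in the metastases. Psmb8 measured 73.9, 108, 96.3 and 113 in the primary tumors of mice 1 to 4 and between 43.4 and 92.9 (median 49.8) in the metastases. All 9 metastases were below their own primary tumor, the mediastinal lymph node of mouse 3 by only 0.05, a sign that turned to 0.07 above when arrays were quantile normalized or centred. The log2 difference was -0.82 (SE 0.21, adjusted p = 0.163, limma). The methods' t-test, which takes the 9 ratios as independent, gave -0.75 and an adjusted p of 0.0423. Over all 16 tumors, with 121, 157 and 71.5 in mice 5 to 7, it was -0.88 (adjusted p = 0.0271, limma), and this call was lost, with the consensus correlation kept, when the liver metastasis of mouse 1 (adjusted p = 0.0518) or of mouse 2 (0.0683), or the primary tumor of mouse 2 (0.0697), 4 (0.0663) or 5 (0.0550), was left out. Psmb9 differed by -0.23 (adjusted p = 0.670, limma) and Psmb10 by -0.23 (adjusted p = 0.684, limma). Psmb5, the subunit that Psmb8 replaces, differed by 0.07. Mean ratios of Psmb8 were below 0 in both mice that split the constitutive genes, at -0.44 in mouse 1 and -1.20 in mouse 4.

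**Figure D4:**
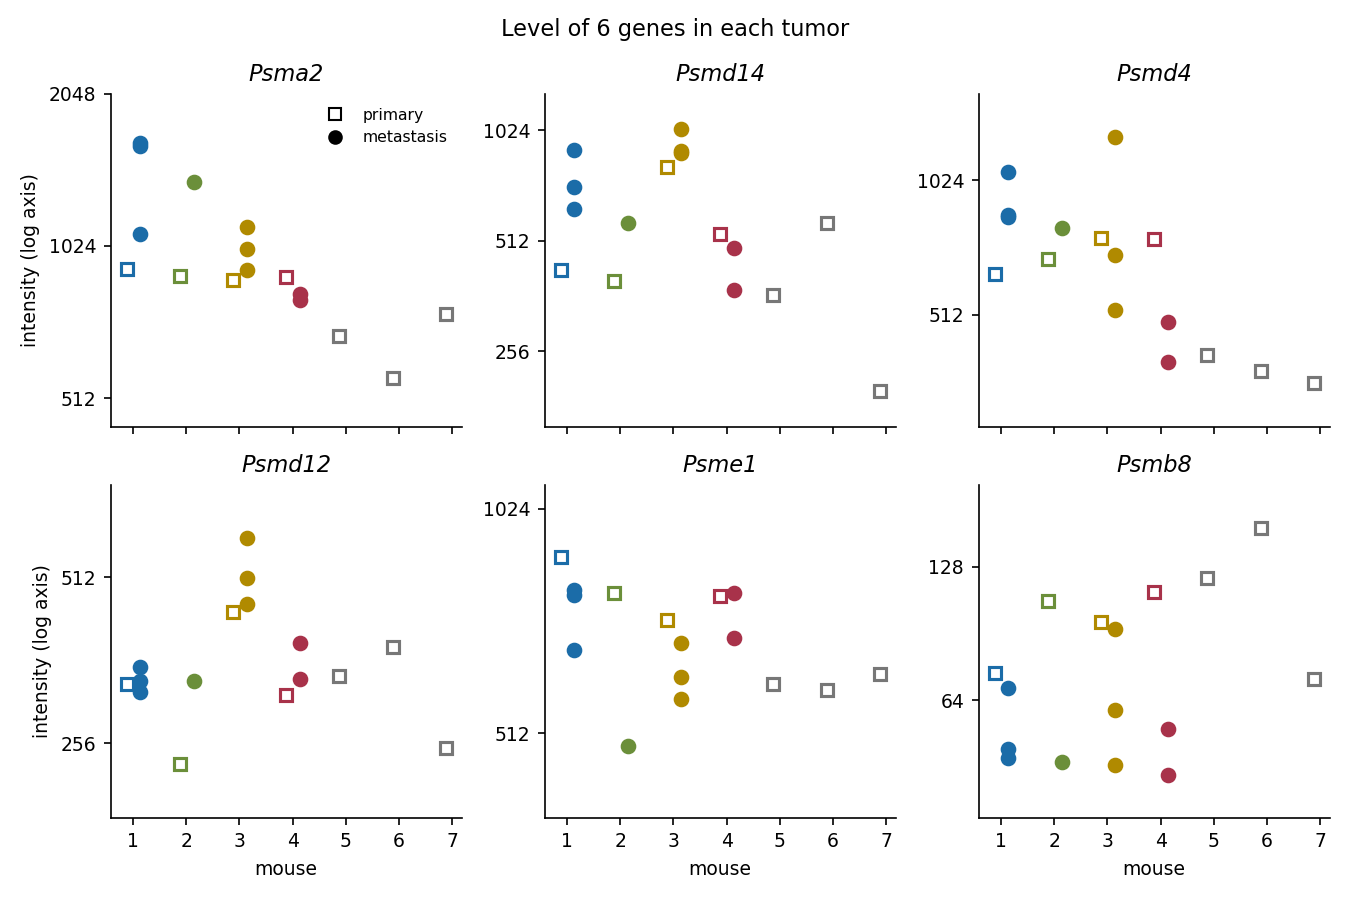
Deposited intensity (log axis) of 6 genes in each of the 16 tumors by mouse, with primary tumors as open squares and metastases as filled circles. Psma2 and Psmd14 lie above the primary tumor in mice 1 to 3 and below it in mouse 4, Psmd4 lies at 417 or less in mice 5 to 7, Psmd12 is above its primary tumor in all but 1 metastasis, and Psme1 and Psmb8 lie below it in 8 and 9 of 9 metastases.

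Genes around the proteasome gave few differences. None of 5 assembly chaperones of the core (Pomp and Psmg1 to Psmg4), 8 proteasome-bound factors, 7 ubiquitin shuttles or segregase genes and 3 regulators passed p of 0.01 in the matched comparison. Their median log2 differences were -0.03, -0.03, -0.01 and -0.02. Within mice, the chaperone Psmg2 had mean ratios of 0.99 in mouse 1 and -0.66 in mouse 4, and Psmg1 0.82 and -0.84. The other chaperones differed from these, with -0.20 and 0.02 for Psmg4, 0.01 and -0.10 for Psmg3 and -0.21 and -0.39 for Pomp. The segregase Vcp, which unfolds ubiquitinated proteins ahead of the proteasome, was at 0.40 and -0.49. The regulator Nfe2l1 was at -0.05 and 0.15, and the deubiquitinases Uchl5 and Usp14 at 0.76 and -0.33 and at 0.03 and -0.26. Whole lists were less split. In the liver, subcutaneous/body wall and inguinal metastases of mouse 1 the chaperone medians were 0.08, -0.07 and 0.13. Those of the bound factors were -0.03, -0.08 and 0.20, of the shuttles and segregase 0.09, -0.11 and 0.39, and of the regulators -0.22, 0.06 and -0.17. In the lymph node and pleura of mouse 4 the same lists had -0.27 and -0.37, -0.15 and -0.20, -0.39 and -0.31, and 0.27 and -0.19. Among the unmatched primary tumors of mice 5 to 7 the chaperones had a median log2 difference of -0.20 from those of mice 1 to 4 (3 of 5 lower). The bound factors had -0.37 (5 of 8), the shuttles and segregase -0.25 (6 of 7) and the regulators -0.08 (2 of 3). Of all genes 55.0% were lower, and of genes of like brightness 60.4%, so the counts of chaperones and bound factors were near these shares.

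Different probe sets of a gene did not always give one direction. Of the 14 genes with at least 2 probe sets above the 25th percentile, 4 had differences of a single sign in the matched comparison, and none of the 68 probe sets of the 37 genes passed p of 0.01. Psmc3ip lay at 1.00 to 19.2, at or near the floor of 1, with a log2 difference of 0.18 (adjusted p = 0.959, limma).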

How the data were processed

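Total RNA of 16 dissected tumors was hybridized by the authors to 1 Affymetrix Mouse 430A 2.0 array each. The deposited intensity values are model-based expression indices from dChip (perfect match minus mismatch probes, after invariant set normalization) on a linear scale. This scaling assumes that most genes do not change, so a shift of all genes would not be seen. The table holds 22690 rows, of which 64 controls were left out. Values under 1 (3.71% with those at 1) were raised to 1, and log2 values of 22626 probe sets were tested in limma 3.58.1 (R 4.3.3) with Benjamini-Hochberg adjustment over all of them. The mouse was a block in the matched comparison, as in the paired design of the study and from the mouse numbers in the labels, and a random block over all 16 tumors (consensus correlation 0.238). Deviations of a metastasis and its own primary tumor from the tissue means correlated at -0.00197 to 0.401. Nothing says more of replicates than that they are separate tumors, and metastases of a mouse counted as replicates of the tissue difference, so p-values measure the spread between these tumors. Array noise was not separately measured, and precision is limited by the number of arrays.

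The members and gene lists were chosen with earlier results of these data known. Genes were named by rule, namely the 20 members of smallest p, others only by counts and ranges, and genes of other lists at p under 0.01. Psmb8, Psmb9 and Psmb10 were always given, and genes named beyond this (Psma1, Psma6, Psma7, Psmd2, Psmd3, Psmd4, Psmd8, Psmd13, Psmg1, Psmg2, Psmg3, Psmg4, Pomp, Vcp, Nfe2l1, Uchl5 and Usp14) were chosen after their values were seen. Fits were run on simulated data with known differences and independent errors, as a check of the computation. For the matched comparison the difference was the same in every mouse, so mice that go opposite ways were not covered. Motifs were searched with Python 3.11.15 in RefSeq promoters, which use GRCm38.p6, a build that is not tied to the array. Probe set coordinates were not used here.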

Additional observations from a re-analysis of the deposited data

Results flagged for a closer look

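Some values stood apart from the others of their group, by a gap to the nearest value that chance gives in about 1 group in 20. That rate is for a single group of independent values. The number of groups screened is not given here, and ratios of a mouse share 1 primary tumor, so these gaps are descriptions. Psmd10 had a log2 ratio of 0.63 in the liver metastasis of mouse 2, where the next highest of the 9 was -0.14. Psmb9 was at 204 in the primary tumor of mouse 2, against 167 in the next of the 7 primary tumors. The gap between core and cap medians was 0.42 in the subcutaneous/body wall metastasis of mouse 1, with 0.11 next.

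Metastases of mouse 1 were all higher and those of mouse 4 all lower than their primary tumors for several measures. The differences of the medians were not tested. Those of the single genes were, in limma with a term for each mouse and tissue, and none of the 37 genes passed an adjusted p of 0.05, the lowest being 0.618 between mice 1 and 4, 0.842 between mice 1 and 3 and 1 between mice 3 and 4. The gap between the mean log2 ratios of mouse 1 and mouse 4 was 0.70 for the median of the 37 genes, 0.79 for the core median and 0.68 for the cap median. Among the genes named by rule it was 1.45 for Psmd7, 1.41 for Psmc3, 1.39 for Psmb1, 1.21 for Psma4, 1.11 for Psmd14, 0.90 for Psma5, 0.76 for Psma2, 0.53 for Psmb5 and 0.50 for Psmb2. Others of the 37 are not listed here, among them Psma7 with the largest gap, 1.675. Between mouse 3 and mouse 4 the gap was 0.52 for Psmd14, 0.34 for Psma2 and 0.14 for Psmb2, and between mouse 1 and mouse 3 it was 1.34 for Psmd7 and 0.90 for Psma4.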

How the results depend on the processing

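In the matched comparison the count of genes at an adjusted p of 0.05 was 0 under every setting tried. At an unadjusted p of 0.01 the counts were 0 except for 1 higher (Psma2) over all 16 tumors and 1 lower (Psme1, adjusted p = 0.0807) by the methods' t-test. The median difference of the 37 genes ran from -0.16 to 0.17 when a mouse or metastasis was left out and was 0.23 over all 16 tumors, and the gap between core and cap ran from -0.03 to 0.08 over all settings. Without the replicate block for the mouse the median was 0.04, the gap 0.0053 and the number called 0. Leaving Psma8 and the assembly factors Psmd5, Psmd9 and Psmd10 out, a choice made after seeing the data, gave a gap of 0.04.

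Over all 16 tumors the sign turned from lower to higher for 11 of the 37 genes. Of the genes named by rule these were Psmd10 (0.023), Psmd7 (0.25), Psma4 (0.19) and Psmd9 (0.022), and outside the 37 it turned for Psmb10 (0.012), where the primary tumors of mice 5 to 7 join the fit. When a mouse or metastasis was left out, the difference ran from -0.017 to 0.49 for Psmc3, -0.015 to 0.17 for Psmb2, -0.14 to 0.31 for Psmc1, -0.16 to 0.35 for Psmb1, -0.022 to 0.19 for Psmb5, -0.078 to 0.16 for Psmd6, -0.48 to 0.042 for Psmd7, -0.33 to 0.099 for Psma4 and -0.27 to 0.068 for Psme3. Without a turn of sign it ran from 0.11 (without mouse 1) to 0.51 (without mouse 4) for Psmd14, 0.14 to 0.47 for Psma5 and 0.19 to 0.46 for Psma2 with the same mice left out, and from -0.46 (without mouse 2) to -0.15 (without mouse 4) for Psmd10. By the methods' t-test Psmb8 passed an adjusted p of 0.05 (0.0423).

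For the primary tumors of mice 5 to 7, with settings chosen after seeing the data, 7 genes were lower at p of 0.01, 11 with values under the 25th percentile raised to it, and 5 to 9 with a tumor left out. The count of 2 at an adjusted p of 0.05 became 1 under quantile normalization, 0 with arrays centred on their medians and 0 with any of the 7 tumors left out. The median difference lay between -0.63 and -0.43 throughout. Between mouse 1 and mouse 4, 8 genes were higher in mouse 1 at p of 0.05, 4 after quantile normalization and 3 to 15 with a metastasis left out, and 0 at an adjusted p of 0.05 under every setting tried. The cause of these changes was not tested.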
